A study of Arabidopsis thaliana with 45 samples.

Results

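The core and linker histone genes of Arabidopsis thaliana were followed across leaves and roots of 7 day-old wild type Col-0 seedlings that had been sealed in Kennedy Fixation Tubes (KFTs), the spaceflight vessels in which plants are fixed by releasing RNAlater onto them. Members were the genes whose definition in the deposited tables names histone H1, H2A, H2B, H3 or H4 and no enzyme or chaperone that acts on a histone. This gave 44 of the 28545 genes in the tables. One of the 44, AT3G07565, is defined as a histone H2A deubiquitinase and is not a histone, so 43 histone genes remained: 2 for H1, 13 for H2A, 8 for H2B, 12 for H3 and 8 for H4. Another 5 histone genes in the tables carry definitions without these words, among them the linker histone gene HIS1-3 and the H3.3 gene AT4G40030, and are named below only where a result turns on them.

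All plants were grown under continuous light, which was broken on the way by 8 h of dark storage and resumed for the days before use. By the sample labels, quiescent seedlings were fixed after 4 h in the KFT (Q1), 4 h 14 min (Q2), 4 h 18 min (Q3) or 4 h 28 min (Q4), and the clinorotated seedlings (C) had 4 h 14 min in the KFT followed by 4 min of rotation. The study's methods, which count from a mock launch, place each quiescent fixation several minutes earlier than the labels do. Leaves (L) and roots (R) of each of these 5 treatments gave 3 libraries each. Roots of a further set came from 4 KFTs fixed at 4 h (Q1A, Q1B, Q1C and Q1D) and from a Petri plate (Q1P), again with 3 libraries each, so that 45 libraries fell into 15 groups. The 3 libraries of a group came from plants of 1 vessel, so vessel and time cannot be told apart. Where each group had its own term, p-values measure the spread between libraries of the same vessel. Where the 4 KFTs Q1A to Q1D were pooled as 1 group, against the plate or Q1R, that spread also holds differences between vessels. Roots against leaves in Q1 to Q4 had a term for each time, so its spread also holds differences of the tissue effect between vessels. Libraries, not vessels, were the units throughout.

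Histones package DNA: pairs of H2A, H2B, H3 and H4 form the nucleosome core, and the linker histone H1 sits where DNA enters and leaves it. The canonical forms, H2A, H2B, H3.1 and H4, are made chiefly while DNA is replicated, and H3.1 is placed behind the replication fork by the chaperone complex CAF-1. Replacement variants are used outside replication as well: H3.3 is placed in transcribed genes by HIRA and ATRX, H2A.Z marks responsive genes and gene starts, H2A.W is the form of heterochromatin, H2A.X is phosphorylated at DNA breaks, and HTR12 (CENH3) builds the centromere. In seedlings, canonical histone transcripts are therefore read most in dividing cells of meristems and young organs.

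Libraries held between 29203427 and 117091661 counts, with a median of 50467925, and levels are given as counts per 1000000 counts of the library (CPM). Markers separated the labelled tissues: the summed level of 9 photosynthesis genes was 28011 to 42699 CPM in the 12 leaf libraries of Q1 to Q4 and 144 to 421 CPM in the 12 root libraries, and that of 3 root meristem genes was 0 to 1.18 CPM in leaves and 17.4 to 33.1 CPM in roots. The summed level of 3 shoot meristem genes was at least 1.71 CPM in these leaf libraries and at most 0.167 CPM in roots. In bulk tissue, fewer cells of a type and less RNA per cell cannot be told apart. Library Q4L replicate 1, whose title says Q4 and whose source field says Q3, stood apart. It was the least deep library, 17817 genes had counts there against at least 19583 in every other library, and 22 of the 43 histone genes lay above and 6 below the range of the other 11 leaf libraries. Genes outside the histones were not counted against that range, so whether histone genes stood out there is not known. Q1B replicates 2 and 3 and Q1C replicates 2 and 3 also stood apart: 76 genes with at least 1 CPM in each of the other 11 libraries of their set were more than 4-fold lower in all 4, and 0 genes were higher by that rule. For genes named singly, calls that rest on these libraries are given with and without them, whereas sums and shares over families hold all libraries.

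Short motifs known from plant histone promoters were read in the 200 bases upstream of the annotated gene start, on both strands, in the RefSeq annotation of TAIR10.1. The octamer CGCGGATC was present at 10 of the 43 histone genes and at 33 (0.12%) of all 27443 protein-coding nuclear genes, and the hexamer ACGTCA at 9 of 43 and at 1805 (6.58%) of all. The octamer lay at 3 of the 5 H3.1 genes, 2 of the 4 canonical H2A genes, 2 of the 8 H4 genes, H1.1, the H2A.W gene HTA6 and the H3.3 gene AT4G40040, and at 0 of 8 H2B and 0 of 4 H2A.Z genes, whereas the hexamer lay at 6 of 8 H2B genes. The nonamer CATCCAACG and the E2F-type TTTCCCGC were found at 0 of 43 and at 39 (0.142%) and 148 (0.539%) of all. A few promoters are shown because they carry these motifs and belong to genes whose levels are described below, each 5′ to 3′ on the strand of its gene, with the octamer (in either orientation) or the hexamer in capitals:
AT5G59690 (H4, chr5:24051274-24051473, plus strand): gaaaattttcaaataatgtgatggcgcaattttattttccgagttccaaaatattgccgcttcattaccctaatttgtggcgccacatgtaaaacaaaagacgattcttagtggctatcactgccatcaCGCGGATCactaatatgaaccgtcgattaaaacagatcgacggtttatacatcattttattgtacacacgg
AT1G09200 (H3.1, chr1:2972335-2972534, minus strand): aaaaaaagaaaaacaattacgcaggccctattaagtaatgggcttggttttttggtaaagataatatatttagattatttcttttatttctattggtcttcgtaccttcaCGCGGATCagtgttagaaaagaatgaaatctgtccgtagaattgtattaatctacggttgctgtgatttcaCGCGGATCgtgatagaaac
AT5G65360 (H3.1, chr5:26120582-26120781, minus strand): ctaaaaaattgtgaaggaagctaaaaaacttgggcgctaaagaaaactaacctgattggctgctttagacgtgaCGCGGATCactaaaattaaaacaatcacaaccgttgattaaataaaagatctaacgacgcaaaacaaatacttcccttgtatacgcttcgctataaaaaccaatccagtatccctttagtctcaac
HTA10 (H2A, chr1:18926611-18926810, plus strand): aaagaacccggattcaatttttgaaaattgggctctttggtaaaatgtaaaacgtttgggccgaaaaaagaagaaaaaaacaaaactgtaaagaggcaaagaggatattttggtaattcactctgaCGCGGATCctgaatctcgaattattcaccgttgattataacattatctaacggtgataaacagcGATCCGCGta
HTB1 (H2B, chr1:2412738-2412937, plus strand): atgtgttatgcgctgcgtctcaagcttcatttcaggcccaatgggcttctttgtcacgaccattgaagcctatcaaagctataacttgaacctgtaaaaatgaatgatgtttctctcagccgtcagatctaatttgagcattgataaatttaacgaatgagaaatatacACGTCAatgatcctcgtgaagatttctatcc
AT3G53650 (H2B, chr3:19889097-19889296, plus strand): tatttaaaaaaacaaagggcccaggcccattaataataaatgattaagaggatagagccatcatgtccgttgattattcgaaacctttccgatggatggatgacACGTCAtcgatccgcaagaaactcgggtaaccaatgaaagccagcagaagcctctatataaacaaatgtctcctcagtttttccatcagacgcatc
The H3.1 gene AT1G09200 and the H2A gene HTA10 each hold the octamer at 2 places, and in HTA10 the copy nearer the gene start lies on the opposite strand.

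Per kilobase of exon, the single member with the highest level was an H3.3 gene in both tissues. AT5G10980, one of the 2 H3.3 genes among the members, had 312 ± 22.1 CPM per kb in roots and 232 ± 24.6 in leaves (mean ± SD, n = 12 libraries each, Q1 to Q4), and AT4G40040, the other, had 252 ± 12.6 in roots and 334 ± 64.2 in leaves. The most abundant H3.1 gene, AT5G65360, had 204 ± 36.3 in roots and 142 ± 23.4 in leaves, and the most abundant H4 gene, AT5G59690, had 176 ± 36.5 and 227 ± 34.2. Among H2A genes HTA6 led in roots (198 ± 38.3) and the H2A.Z gene HTA9 led in leaves (215 ± 79.3). The spreads of neighbours in this order overlapped in most places, as for H1.2 (166 ± 17.3 in roots) and H1.1 (151 ± 17.3). At the other end, 4 histone genes failed the low-count filter of the main tissue comparison: the H2B gene AT1G08170 (398 counts in 19 of all libraries), the H3-like genes AT5G12910 (146 counts in 14) and AT1G75600 (1627 counts in 34), and the H2A.Z gene HTA4 (618 counts in 29).

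Exact repeats of 150 bases were rare in these genes. Of the 43 genes, 41 had no 150-base window of their gene span, introns included, found again elsewhere in the genome. The H4 genes AT3G45930 and AT3G46320 shared 11 windows with other sequence (2.02% and 2.22% of theirs). Reads across splice junctions and reads trimmed to fewer bases were not covered, so the number of ambiguous reads was not measured. Some neighbours lie close enough for one transcript to run into the other. The H3.1 gene AT5G65360 (TAIR10.1, chr5:26119859-26120581) and the H3-like gene HTR11 both lie on the minus strand, with the end of AT5G65360 34 bases from the start of HTR11, and AT4G40040 (chr4:18557149-18558945) lies 43 bases from AT4G40030, so values of HTR11 and of the H3.3 pair may hold reads of the neighbour.

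The first comparison asked how the histone set differed between roots and leaves in the quiescent KFTs. The composition differed by family and, within families, by gene. Among transcripts of the member genes, linker messages took a greater share in these roots, as did H2A.X messages within H2A. H4 messages took a smaller share in these roots, with the other root sets nearer to leaves. Single genes of H2A.Z, H2A.W, H2B and H3 went opposite ways within their family. By edgeR's quasi-likelihood test with Benjamini-Hochberg adjustment over all 20915 genes tested, 24 of 39 histone genes tested passed at an adjusted p of 0.05: 8 were higher in roots and 16 lower, with a median log2 fold change of -0.22. Over all genes, 72.4% passed (37.9% higher and 34.4% lower) with a median of 0.06. The 12 root and 12 leaf libraries did not overlap for 5 genes that were higher in roots (27.3% of all genes) and 1 that was lower (12.9% of all genes). The plot of log2 fold changes by gene shows the members in their families.

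**Figure D1:**
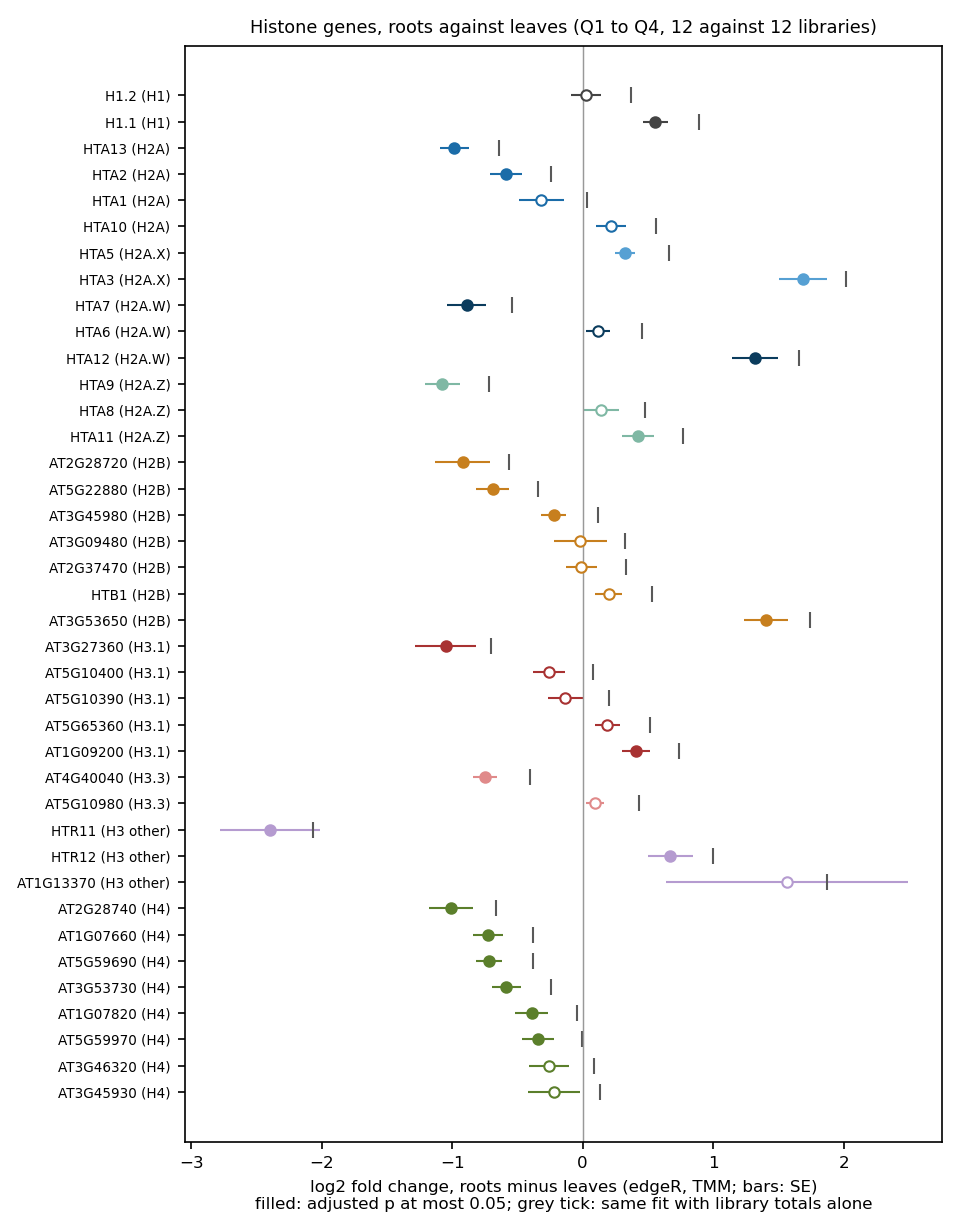
Log2 fold change of each tested histone gene in roots minus leaves (x axis; 12 against 12 libraries, Q1 to Q4; bars are standard errors), grouped by family, filled where the adjusted p was at most 0.05. All 8 H4 genes lie left of 0 with TMM scaling, while the grey ticks, from the same fit with library totals alone, sit further right for every gene and put 2 H4 genes above 0.

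The scale of this comparison needs stating before the genes. The fold changes used TMM factors, which centre the bulk of genes near 0. With library totals alone, the median of all genes moved from 0.06 to 0.40, and 10669 genes were higher and 5423 lower, against 7937 and 7202 with TMM. Among histone genes 16 were then higher and 12 lower. All 8 genes called higher with TMM were among those 16, 12 of the 16 called lower stayed lower, 0 changed sides, and the 4 lower with TMM alone were HTA2, AT1G07820, AT5G59970 and AT3G45980.

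Of the linker histones, which close the nucleosome and compact chromatin, H1.1 was higher in roots. Its lowest, median and highest levels were 63.4, 89.9 and 123.3 CPM in the 12 leaf libraries and 123.9, 175 and 199 CPM in the 12 root libraries. The highest leaf library fell just short of the lowest root library, so the tissues did not overlap, with a log2 fold change of 0.56 ± 0.10 (SE, edgeR adjusted p 1.48e-05). H1.2, the more abundant of the pair, had 185, 204 and 369 CPM in leaves and 217, 271 and 339 CPM in roots. Q4L replicate 1 (369 CPM) lay above every root library and 2 other leaf libraries lay above the lowest root library, and the log2 fold change of 0.02 ± 0.11 did not pass (edgeR adjusted p 0.859). Without that library it was 0.15 (edgeR adjusted p 0.0282), and with library totals it was 0.37 (edgeR adjusted p 0.00131). The share of H1 in transcripts of the 43 histone genes, each taken per kilobase, was 6.98% in the median leaf library and 9.96% in the median root library. Shares and sums over families leave out the 5 histone genes outside the members, and some of these are abundant. The H2B genes HTB11 and HTB4 had 265 and 215 CPM per kb in roots and 189 and 214 in leaves. The H3.3 gene AT4G40030 had 195 in roots and 213 in leaves. HIS1-3, the stress-responsive linker histone gene outside the members, was further toward roots, at 1.86, 4.07 and 8.46 CPM in leaves and 8.37, 22.0 and 51.7 in roots (log2 fold change 2.12 ± 0.21, edgeR adjusted p 2.99e-09).

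Both H2A.X genes, whose protein carries the mark of DNA breaks, were higher in roots. HTA3 had 1.03, 2.36 and 3.11 CPM in leaves and 5.19, 8.33 and 19.02 in roots. No leaf library reached a root library, and the log2 fold change was 1.69 ± 0.18 (edgeR adjusted p 1.67e-08). HTA5, the abundant partner, had 54.7, 77.9 and 98.9 CPM in leaves and 110, 119 and 149 in roots, again with no overlap (0.32 ± 0.08, edgeR adjusted p 0.000628). H2A.X made up 8.38% of H2A-family transcripts per kilobase in the median leaf library and 13.2% in the median root library. In the clinorotated libraries it made up 8.6% to 9.7% in leaves and 9.1% to 11.6% in roots, which overlapped.

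The H2A.Z genes split. HTA9 was lower in roots, at 128, 165 and 387 CPM in leaves against 91.5, 104 and 131 in roots. The groups overlapped by a few CPM and the 387 CPM were Q4L replicate 1, the other 11 leaf libraries ending at 188 CPM. The log2 fold change was -1.08 ± 0.14 (edgeR adjusted p 1.83e-07), and -0.92 without that library. HTA11 went the other way, at 29.7, 43.6 and 57.2 CPM in leaves and 51.5, 70.2 and 101 in roots (0.42 ± 0.13, edgeR adjusted p 0.00424). The groups overlapped, and its call was lost when counts were summed per KFT and tissue (adjusted p 0.0573). HTA8 did not pass (0.14 ± 0.14, edgeR adjusted p 0.377). HTA4 was at no more than 0.0865 CPM in any root library of Q1 to Q4 and at up to 2.36 CPM in leaves, below the filter.

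H2A.W, the heterochromatin form, split as well. HTA12 was the minor gene and was higher in roots, at 2.99, 6.51 and 11.3 CPM in leaves and 15.3, 19.3 and 25.6 in roots, with no overlap (1.32 ± 0.18, edgeR adjusted p 4.84e-07). HTA7 was lower in roots, at 64.8, 101 and 190 CPM in leaves and 52.0, 73.2 and 100 in roots (-0.89 ± 0.15, edgeR adjusted p 1.15e-05), with overlapping groups. Its highest leaf library was Q4L replicate 1, without which it was -0.74. HTA6, the most abundant, did not pass with TMM (0.12 ± 0.09, edgeR adjusted p 0.262) and was higher with library totals (0.45). Of the 4 canonical H2A genes, HTA13 (-0.98 ± 0.11) and HTA2 (-0.59 ± 0.12) were lower, and HTA10 and HTA1 did not pass.

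**Figure D2:**
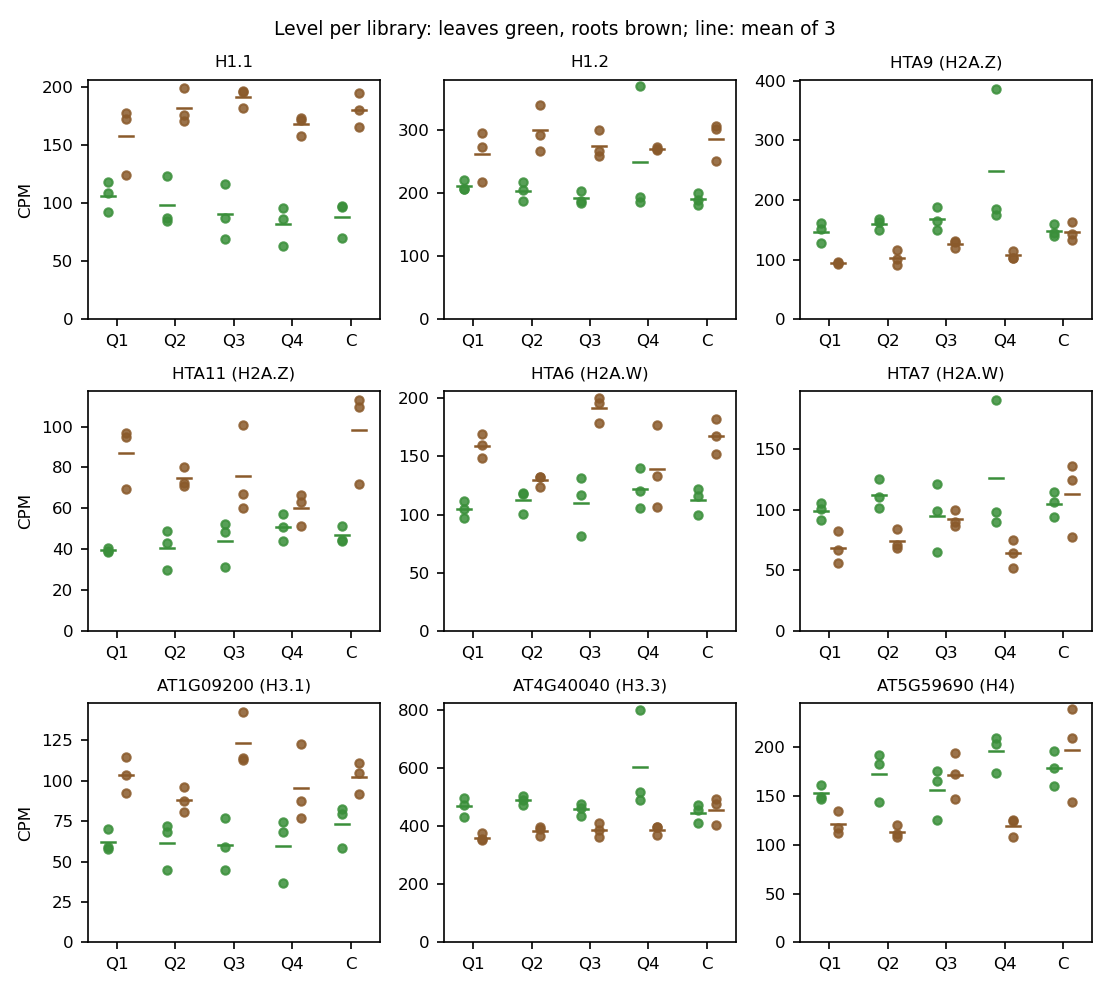
Level in CPM of 9 histone genes in each library of the time course (x axis: Q1 to Q4 and clinorotated; leaves green, roots brown; lines are means of 3). H1.1 in roots lies above leaves at every time, AT4G40040 lies below in Q1 to Q4, and 1 leaf library of Q4 stands far above its 2 partners for H1.2, HTA9, HTA7 and AT4G40040.

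H2B genes moved in both directions. AT3G53650, which the tables define as H2B.8 and whose promoter above carries the hexamer, was the H2B gene furthest toward roots, with 4.37, 8.51 and 13.4 CPM in leaves and 18.2, 27.2 and 33.6 in roots. No library overlapped (1.40 ± 0.17, edgeR adjusted p 8.45e-08). This held for roots of Q1 to Q4. Roots of Q1A to Q1D, with the 4 libraries that stand apart, had 0, 8.45 and 13.9 CPM. Plate roots had 5.73, 6.91 and 11.8 CPM. The ranges of these roots overlapped that of leaves, and they were not tested against leaves. The other 3 H2B genes that passed were lower in roots: AT2G28720 at -0.92 ± 0.21 (-0.68 without Q4L replicate 1), AT5G22880 at -0.69 ± 0.13 and AT3G45980 at -0.22 ± 0.09, the last only with TMM. HTB1, which carries the same hexamer, did not pass (0.20 ± 0.10, edgeR adjusted p 0.0849). AT3G07565, the H2A deubiquitinase gene and the one member that is no histone, was lower in roots at -0.47 ± 0.12 (edgeR adjusted p 0.000883). The H2B gene AT1G08170, known in Arabidopsis from dry seed and sperm, was at 0 in all 12 root libraries and at 0 to 0.667 CPM in leaves. Set against a floor of 3 counts over the root libraries together, its level was at least 55.9-fold lower in roots.

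Replication-dependent H3.1 and replacement H3.3 did not move as blocks. Of the 5 H3.1 genes, AT1G09200 was higher in roots, at 37.1, 63.7 and 77.01 CPM in leaves and 76.9, 99.6 and 143 in roots (0.41 ± 0.11, edgeR adjusted p 0.00153), with an overlap of less than 1 CPM. AT3G27360, the least abundant, was lower (-1.05 ± 0.23, edgeR adjusted p 0.000344). AT5G65360, AT5G10390 and AT5G10400 did not pass. Of the H3.3 genes, AT4G40040 was lower in roots, at 432, 483 and 801 CPM in leaves and 353, 382 and 411 in roots. The groups did not overlap, with or without Q4L replicate 1 at 801 CPM (-0.75 ± 0.09, edgeR adjusted p 8.37e-08, and -0.65 without it). AT5G10980 did not pass with TMM (0.09 ± 0.07, edgeR adjusted p 0.234) and was higher with library totals (0.43). Among the H3 members, without the H3.3 gene AT4G40030, the H3.1 share of transcripts per kilobase was 37.7% in the median leaf library. It was 44.1% in the median root library, and the share of H3.3 was 60.5% and 54.7%. These ranges overlapped between tissues.

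HTR12, the centromeric H3 that cells make ahead of division, was higher in roots, at 2.23, 4.96 and 7.39 CPM in leaves and 6.41, 10.7 and 17.8 in roots (0.67 ± 0.17, edgeR adjusted p 0.00134). HTR11, an H3-like gene beside AT5G65360, was the histone gene furthest toward leaves, at 2.16, 6.51 and 10.3 CPM in leaves and 0.0594, 1.28 and 2.77 in roots. The groups overlapped in a few libraries (-2.40 ± 0.39, edgeR adjusted p 6.44e-06). AT5G12910, another H3-like gene, was at 0 in all 12 leaf libraries and at most 0.389 CPM in roots. Over the root libraries together it was at least 24.0-fold higher against a floor of 3 counts. Its root median was only 0.033 CPM, and Q4R was at 0 as leaves were, so this bound does not hold for every root group.

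H4 has no variants in these annotations. All 8 of its genes had negative log2 fold changes with TMM, with a median of -0.49, and 6 passed as lower in roots: AT2G28740 (-1.01 ± 0.17), AT1G07660 (-0.73 ± 0.11), AT5G59690 (-0.72 ± 0.10), AT3G53730 (-0.59 ± 0.11), AT1G07820 (-0.39 ± 0.13) and AT5G59970 (-0.34 ± 0.12). AT5G59690, whose octamer promoter is shown above, had 126, 170 and 210 CPM in leaves and 108, 122 and 194 in roots. The groups overlapped, the highest root libraries being those of Q3. With library totals AT3G46320 and AT3G45930 turned to above 0, neither passing in either fit. The other root sets were not tested against leaves, and not all of these genes were lower there. Median CPM in leaves, Q1A to Q1D and plate roots were 24.8, 65.9 and 61.0 for AT1G07660. They were 53.9, 76.0 and 72.0 for AT2G28740, and 71.6, 113 and 108 for AT1G07820. AT3G53730 had 96.6, 86.2 and 85.5, AT5G59690 170, 174 and 162, and AT5G59970 68.1, 80.3 and 65.9. The H4 share in transcripts of the 43 histone genes, per kilobase, was 22.0% in the median leaf library and 17.5% in the median root library of Q1 to Q4. In the other sets the medians were 22.0% in the 12 root libraries of Q1A to Q1D, 20.6% in plate roots, 23.5% in CR and 22.4% in CL. Over the family sums, scaling decided the sign for several classes: the sum of all histone genes was 0.09 (log2, roots minus leaves) in CPM and -0.30 after TMM, with H2A, H2A.W and H2B also turning from above to below 0, while H4 was -0.21 and -0.60, H2A.Z -0.23 and -0.64, H1 0.55 and 0.15, and H2A.X 0.72 and 0.34, each of these keeping its sign.

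Genes that go with cell division and chromatin assembly were read beside the histones. Over all genes in this comparison 37.9% were higher in roots and 34.4% lower, with a median of 0.06. Of 19 replication genes 6 were higher and 2 lower in roots (median 0.26), led by the licensing factor CDT1A (1.21 ± 0.34) and the helicase subunit MCM2 (0.69 ± 0.16). Of 11 mitosis genes 8 were higher and 0 lower (median 0.50), with CDKB1;1, a mitotic kinase, at 1.68 ± 0.33. Their summed level was 132 to 285 CPM in leaves and 260 to 485 in roots, while the median H4 sum was 540 CPM in leaves and 454 in roots. Of 19 histone chaperones 8 were higher and 3 lower (median 0.20), led by UBN2 of the HIRA complex (1.21 ± 0.35) and NAP1;3 (0.94 ± 0.07), while the CAF-1 subunits FAS1 and FAS2 stood at -0.00 ± 0.11 and 0.01 ± 0.17. Of 9 genes for exchange of H2A variants 2 were higher and 4 lower (median -0.10): the H2A.W-linked remodeller DDM1 was at 1.02 ± 0.12, and SWC2, SWC6 and ARP6 of the complex that loads H2A.Z were at -0.69 ± 0.13, -0.65 ± 0.19 and -0.65 ± 0.09.

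The clinorotated pair gave the same tissue comparison on libraries that the first did not use. Of 40 histone genes tested, 9 were higher and 2 lower in CR than in CL (edgeR), with a median of 0.18. Over 21602 genes 56.3% passed, 28.9% higher and 27.3% lower. Those that had been higher in quiescent roots and were so here were AT3G53650 (1.31 ± 0.29, from 9.78, 12.3 and 9.06 CPM in CL to 19.3, 39.9 and 39.3 in CR), HTA12 (1.21 ± 0.18), HTA11 (0.71 ± 0.19) and H1.1 (0.67 ± 0.16). HTA8 (0.73 ± 0.27) and the H2B gene AT2G37470 (0.52 ± 0.18) were higher as well, but HTA8 lost its call without any 1 library other than CR replicate 1, and AT2G37470 without CL replicate 2, CL replicate 3, CR replicate 2 or CR replicate 3. HTR11 was lower in both (-2.20 ± 0.50). HTA9 passed as lower (-0.38 ± 0.13) with TMM, lost its call without any 1 library other than CR replicate 2, and stood at -0.015 with library totals (edgeR adjusted p 0.919). H1.2 (0.23 ± 0.13), HTA3 (0.99 ± 0.44), HTR12 (0.39 ± 0.28), AT4G40040 (-0.33 ± 0.13) and HTA7 (-0.25 ± 0.21) did not pass here. Nor did HTA5 (0.24, edgeR adjusted p 0.106) and AT1G09200 (0.12, edgeR adjusted p 0.585), both higher in quiescent roots. Thus 0 of 2 H2A.X genes passed in this pair. The H3-like gene AT1G75600 was at 0 in all 3 CL libraries and at 0.453, 0.817 and 0.898 CPM in CR, at least 29.6-fold higher against a floor of 3 counts. H4 did not follow: 5 of its 8 genes were positive with a median of 0.23, AT3G45930 passed as higher (0.67 ± 0.23; lost without CL replicate 1, CL replicate 2, CR replicate 2 or CR replicate 3) and 0 passed as lower. CR replicate 1, the deepest library, had the lowest level of its group for all 8 H4 genes, and without it 16 histone genes were higher, against 5 to 7 without any other library. Counts without 1 library were made for histone genes alone, with no share over all genes beside them. With library totals, 23 histone genes were higher and 1 lower, while over all genes 9095 were higher and 4494 lower.

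The time course asked what changed in quiescent KFTs between 4 h and 4 h 28 min. Among the members, roots at Q3 were the only group in which histone genes passed, and all that passed were higher. Of 41 tested, 5 were higher than in Q1R and 0 lower (edgeR over 20993 genes), against 4.54% of all genes (2.75% higher and 1.79% lower). The log2 fold change was positive for 33 of 41, with a median of 0.32, beside -0.00 over all genes. The plot of fold changes by comparison shows this shift across families.

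**Figure D3:**
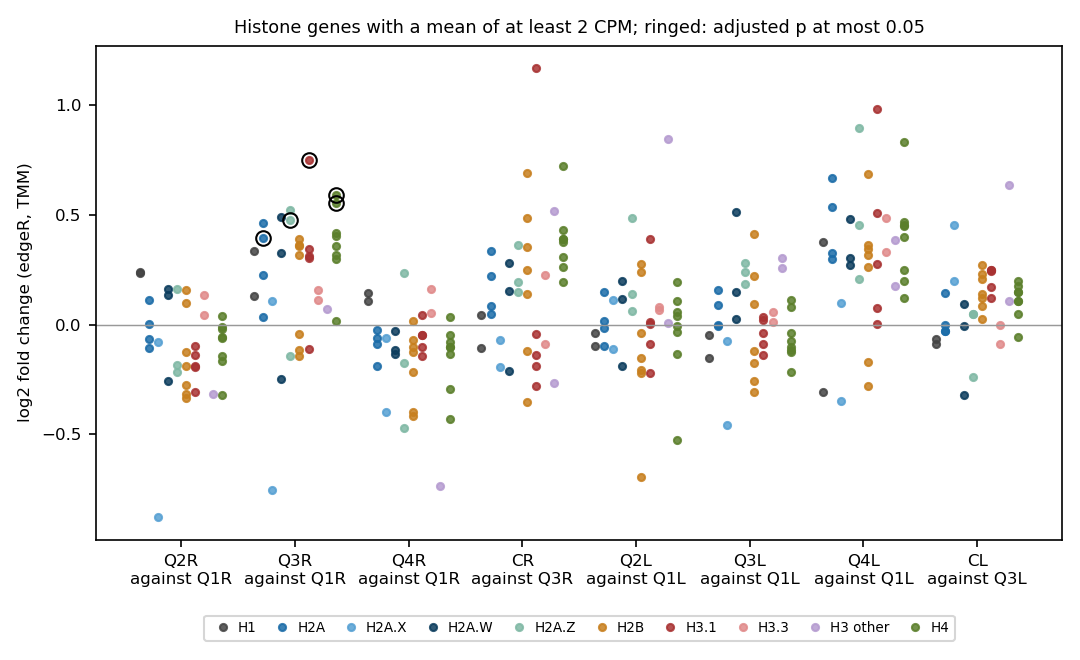
Log2 fold change (y axis) of each histone gene with a mean of at least 2 CPM in each time-course and clinorotation comparison (x axis), coloured by family and ringed where the adjusted p was at most 0.05. The 5 ringed genes all belong to Q3R against Q1R, and the H4 genes lie above 0 in Q3R against Q1R, in CR against Q3R and in Q4L against Q1L.

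The 5 genes came from H3.1, H4, H2A and H2A.Z. AT5G10400, an H3.1 gene, had 56.8, 53.8 and 68.5 CPM in Q1R and 80.2, 94.7 and 114 in Q3R. The groups did not overlap, and the log2 fold change was 0.75 ± 0.15 (edgeR adjusted p 0.0174). The H4 gene AT1G07820 had 54.9, 70.1 and 73.5 CPM in Q1R and 95.5, 96.9 and 94.5 in Q3R, also without overlap (0.59 ± 0.12, edgeR adjusted p 0.0235). The H4 gene AT5G59690 had 118, 112 and 134 CPM in Q1R and 147, 172 and 194 in Q3R (0.55 ± 0.12, edgeR adjusted p 0.0283). HTA9, the H2A.Z gene, had 93.6, 95.3 and 95.8 CPM in Q1R and 130, 131 and 119 in Q3R (0.48 ± 0.10, edgeR adjusted p 0.0222). HTA10, canonical H2A, had 137, 127 and 141 CPM in Q1R and 172, 161 and 178 in Q3R (0.39 ± 0.10, edgeR adjusted p 0.0399). In all 5 the lowest Q3R library was above the highest Q1R library. Genes picked because they passed are likely to show this, so it adds nothing to the calls. Over all genes tested, passed or not, it held for 10.7%.

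The rest of the set leaned the same way without passing. All 8 H4 genes were positive, with a median of 0.38, and the H4 sum was 431, 450 and 516 CPM in Q1R and 570, 620 and 611 CPM in Q3R. Linker histones H1.1 (0.33 ± 0.13, edgeR adjusted p 0.165) and H1.2 (0.13 ± 0.12) did not pass, nor did HTA6 (0.33 ± 0.10, edgeR adjusted p 0.0842), HTA7 (0.49 ± 0.14, edgeR adjusted p 0.0730), the abundant H3.1 gene AT5G65360 (0.30 ± 0.12, edgeR adjusted p 0.158), AT4G40040 (0.16 ± 0.09) or HTR12 (0.07 ± 0.24). Of the replication genes 2 of 19 passed, both higher: ORC1B (0.67 ± 0.16) and TSO2 (0.46 ± 0.12). Of the mitosis genes 0 of 11 passed (median 0.08). Of 8 root markers 2 were lower, the endodermis genes CASP1 (-0.68 ± 0.12) and MYB36 (-0.58 ± 0.15), and of 9 photosynthesis genes 1 was lower, PSBO1 (-0.69 ± 0.18). All 9 photosynthesis genes were negative, with a median of -0.78, and 6 had an unadjusted p under 0.05. The summed level of 3 seed storage genes was 0 CPM in all Q1R libraries and 18.5 to 25.9 CPM in Q3R, while that of 3 root meristem genes was 18.1 to 24.3 and 22.6 to 28.7 CPM. Their part in the histone result was not tested.

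These calls were near the threshold, and in the alternatives only histone genes were counted, with no share over all genes beside them. DESeq2 called 10 histone genes higher and 0 lower, while leaving out 1 library at a time left between 0 and 4 by edgeR, with 0 left without Q1R replicate 1 and 0 without Q1R replicate 2. The difference of the Q3 effect between roots and leaves passed for 0 of 42 histone genes by edgeR (0.0089% of all genes passed, and 3 histone genes had an unadjusted p under 0.05), with AT5G10400 at 0.77 ± 0.24 (edgeR adjusted p 0.357). It was positive for 34 of 42, with a median of 0.28, and for all 8 H4 genes, with a median of 0.46, while Q3L against Q1L was positive for 20 of 41.

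In Q4R, AT5G10400 had 53.1, 48.8 and 63.8 CPM and AT1G07820 48.2, 68.3 and 68.1 CPM, within or near the range of Q1R, and 0 of 40 histone genes passed in Q4R against Q1R by edgeR or DESeq2 (0.913% of all genes, median -0.09, 5 with an unadjusted p under 0.05). Outside the members, HIS1-3 was higher at Q4R, with 47.7, 51.7 and 33.4 CPM against 18.6, 22.6 and 19.9 in Q1R (1.18 ± 0.18, edgeR adjusted p 0.0059). Q2R against Q1R likewise gave 0 of 41 (0.363% of all genes, median -0.08, 5 with an unadjusted p under 0.05). Of the 5 genes that passed at Q3R, HTA9 was at 0.24 ± 0.12 in Q4R against Q1R and the other 4 were between -0.06 and 0.04. These comparisons share the Q1R libraries, and Q4R was not tested against Q3R.

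In leaves 0 histone genes passed at any time by edgeR or DESeq2. Q2L against Q1L gave 0 of 40 tested (0% of all genes, 1 with an unadjusted p under 0.05), Q3L 0 of 41 (0.00979% of all genes, 0 with an unadjusted p under 0.05) and Q4L 0 of 40 (0% of all genes, 3 with an unadjusted p under 0.05). Without passing, 36 of 40 histone genes were positive in Q4L against Q1L, with a median of 0.34 beside -0.03 over all genes. All 8 H4 genes were positive there, with a median of 0.43. These counts hold Q4L replicate 1 and were not made without it. In Q4L, replicate 1 alone had HTA9 at 387 CPM beside 186 and 174, AT4G40040 at 801 beside 490 and 517, and HTA7 at 190 beside 89.6 and 97.6. Against Q1L the log2 fold changes of HTA9, AT4G40040 and HTA7 were 0.90, 0.49 and 0.48 with that library and 0.30, 0.11 and -0.073 without it. H1.1 in leaves was at 92.5, 118 and 108 CPM in Q1L and 63.4, 86.7 and 95.5 in Q4L, which overlapped.

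Clinorotation was compared with the quiescent KFT of matching time. In CR against Q3R 0 of 40 histone genes passed by edgeR or DESeq2 (0.00475% of all genes, 6 histone genes with an unadjusted p under 0.05), with a median of 0.17. The 8 H4 genes were all positive with a median of 0.38, as was the H4 sum, at 550, 830 and 919 CPM in CR. Its lowest library, CR replicate 1, lay below the lowest Q3R library (570 CPM) and the other 2 lay above every Q3R library. AT2G28740 shows it: this H4 gene had 52.7, 52.3 and 35.8 CPM in Q3R and 50.2, 95.5 and 88.8 in CR (0.72 ± 0.24, edgeR adjusted p 0.261). Without CR replicate 1, 5 histone genes were higher, and 0 without any other single library. Set against Q1R in place of Q3R, 4 histone genes were higher, and against Q1R, Q2R and Q3R together 0 were higher and 0 lower. Q1R had less time in the KFT than CR. Genes outside the histones were not counted in these alternatives. Members of other families gave -0.10 ± 0.11 for H1.1, 0.04 ± 0.13 for H1.2, 0.19 ± 0.13 for HTA9, 0.22 ± 0.13 for AT4G40040 and -0.19 ± 0.12 for AT5G65360, and none of these passed. Of the 19 replication genes 18 were negative, with a median of -0.24, and 0 passed by edgeR. All 9 photosynthesis genes were positive, with a median of 0.47 and 3 at an unadjusted p under 0.05, and 6 of 8 root markers were negative, with a median of -0.31. Their part in the histone values was not tested. In leaves, CL against Q3L gave 0 of 41 (0% of all genes, 1 with an unadjusted p under 0.05), and the interaction of tissue and clinorotation gave 0 of 42 (0.0311% of all genes, 1 with an unadjusted p under 0.05) by edgeR and DESeq2.

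The last set asked whether the vessel itself mattered for roots. With the 4 KFTs as one group against the plate, 0 of 41 histone genes passed by edgeR or DESeq2 (0.979% of all genes, 1 with an unadjusted p under 0.05), with log2 fold changes from -0.34 to 0.41 and a median of -0.05. H1.1 had 171, 188 and 163 CPM on the plate and 146 to 197 CPM in the 12 KFT libraries, and AT4G40040 had 438, 561 and 472 CPM against 407 to 505. Across Q1A to Q1D, an F test gave 0 of 41 by edgeR and 0 by DESeq2 (0% of all genes by edgeR, 1 histone gene with an unadjusted p under 0.05, the H4 gene AT1G07660 at p 0.0315 in edgeR's quasi-likelihood test).

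The 12 libraries nevertheless split for a pair of genes. AT3G53650 had 8.44, 0.0616 and 0 CPM in Q1B and 13.9, 0.102 and 0.0351 CPM in Q1C, against 6.73 to 13.3 CPM in Q1A and Q1D and 5.73 to 11.8 CPM on the plate. The 4 libraries at or near 0 are those that stand apart, and this H2B gene is the one member among their 76 low genes. The other 75 had a median level of 0.0190 CPM in the 4 libraries, 5.12 CPM in the other 11 and 12.5 CPM in quiescent roots of the time course. AT5G10400, the H3.1 gene that was higher at Q3R, was low in the same 4 libraries, at 6.98, 5.49, 7.69 and 8.11 CPM, against 19.9 to 53.4 CPM in the other 11. The groups of libraries were picked for these values, so no test was made. The plot of both genes by root library shows the split.

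**Figure D4:**
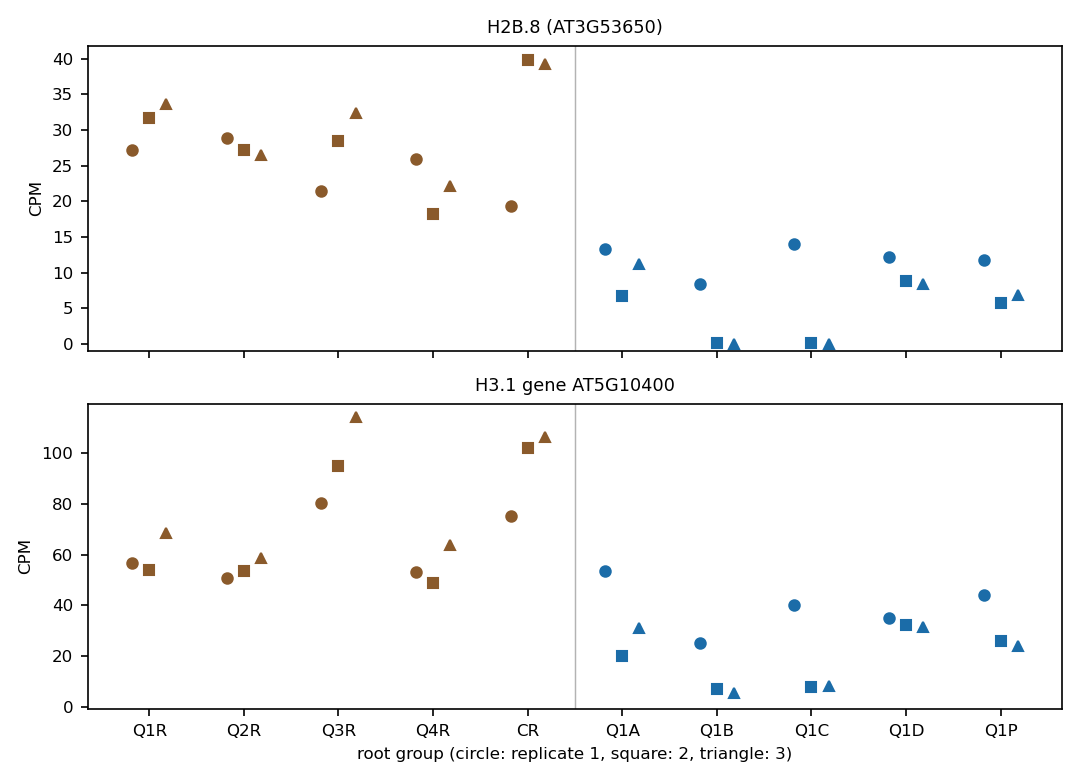
Level in CPM of the H2B gene AT3G53650 (top) and the H3.1 gene AT5G10400 (bottom) in each root library (x axis: groups; circle, square and triangle are replicates 1, 2 and 3; brown for the time course, blue for the KFT and plate set). Replicates 2 and 3 of Q1B and Q1C lie at or near 0 for AT3G53650, and every blue point of AT3G53650 lies below every brown one.

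Q1B replicate 2 differed in another member as well. AT1G08170, the seed and sperm H2B gene, was at 3.84 CPM there and at no more than 0.0435 CPM in the other 14 libraries of the set. The summed level of 3 seed storage genes was 10295.5 CPM in that library, and the median of the 12 KFT libraries was 0.0398 CPM. Their part in the level of AT1G08170 was not tested.

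Q1R and the libraries of Q1A to Q1D carry the same treatment, roots fixed after 4 h in a KFT, and their comparison sets equally labelled libraries of the 2 sets side by side. Of 41 histone genes tested 2 were higher in Q1R (HTA3 at 0.94 ± 0.21 and HTR12 at 0.45 ± 0.13) and 19 lower, with a median of -0.31 (edgeR), against 28.9% of all 22032 genes (12.5% higher and 16.4% lower, median -0.02). Among genes that passed and stood above 2 CPM the furthest was AT1G07660, an H4 gene, at 19.02, 27.5 and 21.3 CPM in Q1R and 52.0, 65.9 and 89.5 (lowest, median, highest) in the 12 KFT libraries. No library overlapped, and the log2 fold change was -1.60 ± 0.16 (edgeR adjusted p 2.45e-06). The neighbours AT2G28720 (H2B, -1.19 ± 0.14) and AT2G28740 (H4, -1.09 ± 0.12) followed, then AT1G07820 (-0.79 ± 0.10), AT5G10390 (-0.68 ± 0.15) and HTB1 (-0.65 ± 0.14). Of the sparse genes AT1G75600 was at -2.04 ± 0.45, and HTA4, at 0 in Q1R and 0.174 to 0.898 CPM in the others, was at least 24.5-fold lower in Q1R against a floor of 3 counts. Of the other members followed in every comparison, H1.2 (-0.31 ± 0.09), HTA9 (-0.51 ± 0.07), HTA7 (-0.29 ± 0.10), AT4G40040 (-0.37 ± 0.07) and AT5G59690 (-0.56 ± 0.09) were lower, and H1.1, HTA11, HTA6 and AT5G65360 did not pass.

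In this comparison AT3G53650 was higher in every Q1R library (27.3, 31.8 and 33.6 CPM) than in every KFT library, yet did not pass with all libraries (2.11 ± 0.96, edgeR adjusted p 0.108). Without the 4 libraries that stand apart it was 1.54 (edgeR adjusted p 3.30e-05), and AT5G10400 was 0.80 (edgeR adjusted p 0.00949), which brought the count of higher genes to 4. For scale, the genes that passed at Q3R within the time course had log2 fold changes of 0.39 to 0.75. The KFT and plate set also had more genes with counts per library (23359 to 24668, against at most 23520 in the time course), and the set, the vessel and any other difference between these libraries cannot be told apart.

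Across root libraries, H3.1 levels went with replication genes and H3.3 levels did not. In the 15 root libraries of the time course, the summed CPM of the 5 H3.1 genes and of the 19 replication genes had Pearson r 0.77 and Spearman rho 0.75, with r 0.65 after leaving out the 2 libraries farthest from the median, whereas for H3.3 they were 0.01, 0.04 and -0.15. In the 15 root libraries of the KFT and plate set, r was 0.85, rho 0.87 and r 0.79 without 2 for H3.1, and -0.14, -0.03 and 0.20 for H3.3. In the 15 leaf libraries they were 0.51, 0.57 and 0.68 for H3.1, and -0.52, 0.04 and 0.30 for H3.3, with Q4L replicate 1 at the lowest replication sum (266 CPM) and the highest H3.3 sum (1040 CPM). The H4 sum was looser, with r 0.29, rho 0.55 and r 0.19 without 2 in time-course roots, and 0.52, 0.54 and 0.37 in the KFT and plate set. Against the summed mitosis genes in time-course roots, r was 0.74 for H3.1, 0.62 for H2A.Z, 0.57 for H4 and 0.25 for H3.3. Both sums of a library share its depth and dissection, libraries of a group share a vessel, and these values are descriptions.

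**Figure D5:**
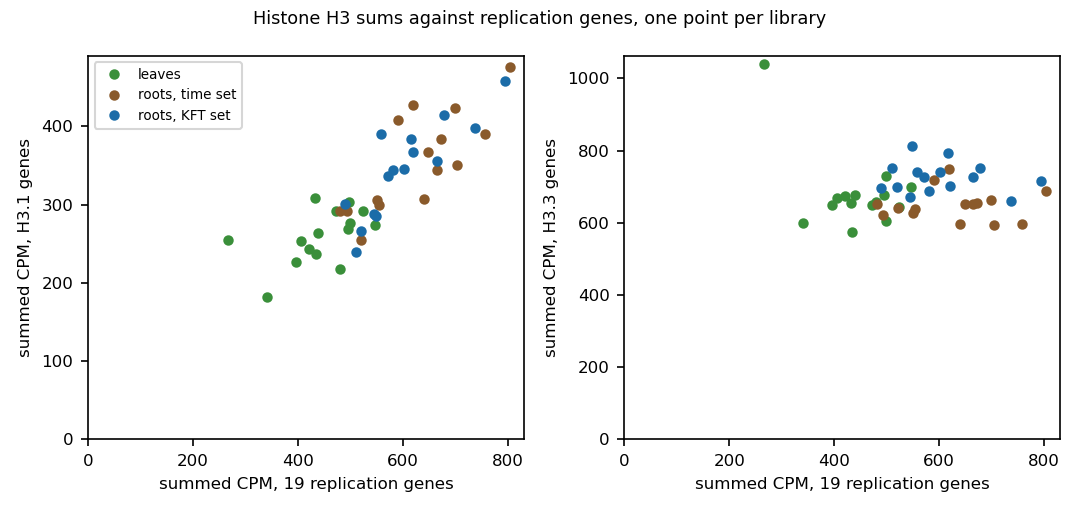
Summed CPM of the 5 H3.1 genes (left) and of the 2 H3.3 genes (right) against the summed CPM of 19 replication genes, 1 point per library (leaves green, time-course roots brown, KFT and plate roots blue). H3.1 rises along the x axis within both root sets (r 0.77 and 0.85), H3.3 is level, and the leaf point far above the others on the right is Q4L replicate 1.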

How the data were processed

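Poly(A) RNA of leaves and roots was sequenced as paired reads with a directional kit, and the authors trimmed the reads, aligned them to TAIR10 with STAR, removed duplicates and counted uniquely mapped reads per gene with HTSeq. The deposited values used here are these counts, not normalized, and the deposited tables also hold normalized values, fold changes and p-values of the authors' own comparisons, which were not used. Whether counting used strand is not given in the sources used here. Counts of the same library in several tables were equal in all 1001640 values compared. Members and lists were chosen with earlier results of these data known. Genes named were, for roots against leaves, up to 12 members per direction with the greatest fold change among those that passed, and up to 8 elsewhere. The rule also listed H1.1, H1.2, HIS1-3, HTA9, HTA11, HTA6, HTA7, AT4G40040, HTR12 and the most abundant H3.1 and H4 genes for every comparison. In several comparisons only part of this list is printed. HIS1-3 is printed only for roots against leaves and for Q4R against Q1R, where it passed. AT3G53650 and AT5G10400 in the KFT set, AT5G10400 and AT1G07820 in Q4R, and AT2G28740 under clinorotation, were named after their values were seen.

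Only the libraries of a comparison entered its model, in edgeR 4.0.16 (filterByExpr, TMM factors, quasi-likelihood F test, R 4.3.3), with time as a term in roots against leaves, and p-values were adjusted by Benjamini and Hochberg over all genes tested. Passed means an adjusted p of at most 0.05. CPM are counts per 1000000 counts of the library, per kilobase of merged exons where said. Floors are 3 counts over a group and cover counting error only. DESeq2 1.42.0, no further filter, replicate blocks, other scaling and leaving out libraries were tried as alternatives, and the tests were tried on simulated counts. Symbols and promoters came from RefSeq (TAIR10.1), where 28285 of the locus tags matched.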

Additional observations from a re-analysis of the deposited data

How the results depend on the processing

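Alternatives were run on the counts and on a set of singly followed histone genes, and no call among these changed direction. Leaving out 1 library at a time was not run for Q1R against Q1A to Q1D. Library totals were run only for that comparison and for roots against leaves, quiescent and clinorotated. The difference of the Q3 effect between roots and leaves was run with no alternative. For these genes, 2264 values kept their direction and side of the threshold, 49 lost and 20 gained a call, over the comparisons and alternatives that were run. Among these alternatives, only library totals were also counted over all genes. Counts of histone genes that passed moved beyond 1.5 times as follows. With library totals in place of TMM factors, roots against leaves gave 16 higher (main 8), clinorotated roots against leaves 23 higher (main 9) and 1 lower (main 2). With a replicate block, clinorotated roots against leaves gave 1 lower. DESeq2 gave 10 higher in Q3R against Q1R (main 5). Q1R as the control of CR gave 4 higher (main 0). Without the 4 libraries that stand apart, Q1R against Q1A to Q1D gave 4 higher (main 2), an alternative chosen after seeing the data, as were library totals and the fit without Q4L replicate 1. Leaving out 1 library at a time gave 8 to 11 higher and 15 to 18 lower in roots against leaves, 5 to 16 higher and 1 to 2 lower in the clinorotated pair, 0 to 4 higher in Q3R against Q1R and 0 to 5 higher in CR against Q3R.

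Summed CPM after TMM, as log2 of roots over leaves, was -0.30 for all histone genes, 0.15 for H1, -0.28 for H2A, 0.34 for H2A.X, -0.25 for H2A.W, -0.64 for H2A.Z, -0.26 for H2B, 0.054 for H3.1, -0.52 for H3.3 and -0.60 for H4, against 0.09, 0.55, 0.11, 0.72, 0.14, -0.23, 0.13, 0.44, -0.13 and -0.21 in CPM, so those of all, H2A, H2A.W and H2B changed sign. Which scale reflects RNA per cell was not tested. Replicate numbers did not pair the libraries: same-numbered deviations correlated between -0.31 and 0.36, and beside the count given the replicate block gave 6 higher in the clinorotated pair, 4 higher in Q3R against Q1R, 15 lower in roots against leaves and 3 higher in Q1R against Q1A to Q1D, with the other counts as before. With 3 libraries of 1 vessel per group, changes under about the spread between vessels of the same label are not resolved, and genes below the filter were read as counts alone.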
